A study of Homo sapiens with 4 samples.

Results

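The 7 genes described here encode the cyclin-dependent kinase (CDK) inhibitors CDKN1A, CDKN1B, CDKN1C, CDKN2A, CDKN2B, CDKN2C and CDKN2D. They were chosen by gene symbol, each symbol was found in 1 row, and they make up 7 of the 20242 promoters in the data. H3K27me3 and H3K4me3 were measured by chromatin immunoprecipitation sequencing (ChIP-seq) in JMJD3c-hESCs, which are human embryonic stem cells of the SEES-3 line that carry an integrated, doxycycline (Dox)-inducible transgene for JMJD3c, the catalytic part of the H3K27 demethylase JMJD3. H3K27me3 is trimethylation of histone H3 at lysine 27, which accompanies Polycomb repression, and H3K4me3 is that at lysine 4, which accompanies active and poised promoters. Cells grown in StemFit AK-03 medium without treatment (−Dox) were compared with cells treated with Dox at 1 µg/ml and collected on day 3 (+Dox). There was 1 library for each mark and condition, 4 in all, so no difference below has a replicate check and no p-value is given. The methods describe stable clones obtained by puromycin selection from SEES-3 cells that expressed the reverse Tet-transactivator. No line without the transgene, untreated or given Dox, and no line with mutant JMJD3c was analysed here. An effect of Dox itself was therefore not tested.

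CDK inhibitors stop the cell cycle by blocking the kinases that drive it. The CIP/KIP proteins p21 (CDKN1A), p27 (CDKN1B) and p57 (CDKN1C) bind complexes of CDK2 and CDK1 with cyclins A, B and E, whereas the INK4 proteins p16 (CDKN2A), p15 (CDKN2B), p18 (CDKN2C) and p19 (CDKN2D) bind CDK4 and CDK6 and keep D-type cyclins away from them. CDKN2A also encodes p14ARF from a separate first exon, and ARF stabilises p53, which in turn switches on CDKN1A. The CDKN2A and CDKN2B locus is a well known Polycomb target, and JMJD3 is known to remove H3K27me3 there in other cell types.

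The values are coverage around the transcription start site (3 kb on each side), scaled by the authors to the reads of each library, in arbitrary units. One read was worth about 0.955 to 1.27 units, and the summed signal over all promoters was 251063 and 213388 for H3K27me3 and 919251 and 896546 for H3K4me3 in −Dox and +Dox. Intervals in parentheses are 95% intervals on the approximate reads and cover counting error only. With each library scaled to its own reads, an equal fall at every place in the genome would stay hidden. A ratio near 1 thus does not show that the amount of a mark was kept. The paper reports from immunoblots that H3K27me3 fell in these cells after Dox. The +Dox libraries of both marks had the same scaling step, so whether each was scaled to its own reads could not be checked. Of 6 pluripotency genes checked as markers of embryonic stem cells, 5 had H3K4me3 above 20 in −Dox. So did 63.7% of all promoters, so this count does not by itself identify the cells. The exception was POU5F1 (5.41), whose listed start lies 10049 bp from its canonical start.

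Which start was listed for a gene decides what its value describes. Sequences from inside the windows are shown for the 4 members whose H3K27me3 is discussed most, CDKN1A, CDKN2A, CDKN2B and CDKN1B. A value covers the whole 6 kb window and does not place the signal on these bases. Each sequence runs from 250 bases before to 50 bases after a RefSeq start (RefSeq, build GRCh38.p14) and matched the GRCh37 genome exactly once. Capitals mark GC boxes, GGGCGG or its reverse complement CCGCCC, the motif bound by SP1-type factors.
CDKN1A, chr6:36646241-36646540, plus strand: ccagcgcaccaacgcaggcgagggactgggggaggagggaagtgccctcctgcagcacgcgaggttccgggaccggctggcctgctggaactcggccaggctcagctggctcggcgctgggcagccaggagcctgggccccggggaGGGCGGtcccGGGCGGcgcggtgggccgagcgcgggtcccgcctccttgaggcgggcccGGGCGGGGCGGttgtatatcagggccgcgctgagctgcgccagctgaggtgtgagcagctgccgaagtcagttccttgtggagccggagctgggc
CDKN2A (p14ARF start), chr9:21995274-21995573, minus strand: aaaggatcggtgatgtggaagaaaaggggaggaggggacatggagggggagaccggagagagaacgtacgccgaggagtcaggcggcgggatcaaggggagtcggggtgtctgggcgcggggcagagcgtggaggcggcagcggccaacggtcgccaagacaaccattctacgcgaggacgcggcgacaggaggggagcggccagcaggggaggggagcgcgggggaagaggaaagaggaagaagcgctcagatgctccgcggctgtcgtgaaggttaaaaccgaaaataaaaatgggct
CDKN2B, chr9:22009255-22009554, minus strand: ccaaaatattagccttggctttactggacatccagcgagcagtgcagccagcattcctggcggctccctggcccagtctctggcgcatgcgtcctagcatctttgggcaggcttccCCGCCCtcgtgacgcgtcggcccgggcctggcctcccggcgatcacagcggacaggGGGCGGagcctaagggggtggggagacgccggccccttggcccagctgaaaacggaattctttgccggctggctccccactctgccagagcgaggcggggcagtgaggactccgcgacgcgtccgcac
CDKN1B, chr12:12870052-12870351, plus strand: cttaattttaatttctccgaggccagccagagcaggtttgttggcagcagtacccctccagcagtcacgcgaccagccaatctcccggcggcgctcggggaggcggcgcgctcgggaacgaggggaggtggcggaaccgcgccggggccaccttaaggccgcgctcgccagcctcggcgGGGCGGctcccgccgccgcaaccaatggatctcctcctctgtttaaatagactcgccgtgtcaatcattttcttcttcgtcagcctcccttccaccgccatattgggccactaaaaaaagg
They contained 29, 28, 25 and 29 CpG dinucleotides, against a median of 14 (quartiles 4 and 28) over 35116 RefSeq promoters of the same length. GC boxes numbered 4 in CDKN1A, 2 in CDKN2B and 1 in CDKN1B (overlapping matches counted), and the CDKN2A stretch held none of these letters. A GC box was present in 45.0% of all promoters, so its presence does not set these genes apart. TATAAA, on either strand, was in none of the 4 and in 11.5% of all promoters. CCAAT, on either strand, occurred 3 times in CDKN1B, not in the other 3, and in 34.6% of all promoters.

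The listed starts, placed on GRCh37 with GENCODE 44, were the canonical ones for CDKN1A (ENSG00000124762, chromosome 6, window 36643491 to 36649491), CDKN2B (ENSG00000147883, chromosome 9, 22006304 to 22012304) and CDKN2D (ENSG00000129355, chromosome 19, 10676655 to 10682655), and lay 4 bp away for CDKN1C (ENSG00000129757, chromosome 11, 2904001 to 2910001). For CDKN2A (ENSG00000147889, chromosome 9, 21992300 to 21998300) the listed start was that of the p14ARF first exon, 20444 bp from the p16 start. The value of CDKN2A below is therefore one of the ARF promoter, and the window also holds the starts of the antisense lncRNA CDKN2B-AS1 (ANRIL), the nearest 168 bp away. For CDKN1B (ENSG00000111276, chromosome 12, 12864992 to 12870992) the listed start lay 2310 bp upstream of the canonical one, which was still inside the window. For CDKN2C (ENSG00000123080, chromosome 1, 51423417 to 51429417) it lay 9500 bp from the canonical start, which was outside the window. The values of CDKN2C below are therefore not those of its canonical promoter. The oppositely transcribed gene FAF1 starts 478 bp from the listed start, so the marks of CDKN2C and FAF1 cannot be told apart there. The CDKN1A window also holds the start of the lncRNA DINOL, 155 bp away, and the CDKN2D window that of KRI1, 2948 bp away.

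Before induction the 7 genes fell into bivalent promoters, above 20 for both marks as defined in the study's methods, and promoters with H3K4me3 only. CDKN1A, CDKN2A and CDKN2B were bivalent (CDKN2B with H3K4me3 of 22.8, interval 14.7 to 34.1, which reaches below 20), and CDKN1B, CDKN1C, CDKN2C and CDKN2D were H3K4me3-only. Over all promoters 9.42% were bivalent, 54.2% H3K4me3-only, 1.58% H3K27me3-only and 34.8% had neither mark. In +Dox cells CDKN2A and CDKN2B were still bivalent, as were 5.07% of all promoters. The +Dox intervals of CDKN2B for both marks and of CDKN2A for H3K4me3 reached below 20, however. CDKN1A had joined the H3K4me3-only genes with an H3K27me3 value of 19.8, just under the threshold. A value of 20 stood for about 15.7 reads of H3K27me3 in −Dox, and CDKN1B, at 18.3 with about 14 reads, lay just under it.

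H3K27me3 at the CDKN2A start for p14ARF, the p53-stabilising product of the locus, was the highest of the family in both conditions. It was 98.9 (78.3 to 124) in −Dox and 96.9 (76.8 to 121) in +Dox, each about 78 reads. These values were above those of 98.1% and 98.6% of all promoters. The ratio of +Dox to −Dox was 0.980 (0.707 to 1.36), so the 2 libraries could not be told apart at this promoter, and the interval allows a ratio as low as 0.707. CDKN2A exceeded the next member, CDKN2B, by 2.26-fold in −Dox (1.52 to 3.54) and by 4.13-fold in +Dox (2.46 to 7.18).

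CDKN2B, which encodes the TGF-beta-induced inhibitor p15, had a lower signal in +Dox as deposited. Its H3K27me3 went from 43.7 (29.9 to 60.4) in −Dox to 23.5 (14.2 to 36.9) in +Dox, a ratio of 0.537 (0.295 to 0.988). CDKN1A, the p53 target that encodes p21, had nearly the same values, 40.7 (27.8 to 57.4) in −Dox and 19.8 (11.4 to 32.4) in +Dox. Its ratio was 0.486 (0.251 to 0.920). The levels of CDKN2B and CDKN1A did not differ beyond counting error in either condition, with folds of 1.07 (0.636 to 1.78) and 1.19 (0.578 to 2.47). Both intervals on the ratio reach 1 when the 2 H3K27me3 libraries are scaled to the same summed signal, with ratios of 0.632 (0.347 to 1.16) for CDKN2B and 0.571 (0.296 to 1.08) for CDKN1A. That scaling assumes an unchanged total of H3K27me3, whereas the paper reports a fall.

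CDKN1B, the gene of p27, had the lowest ratio of the family at a modest starting level. Its H3K27me3 was 18.3 (9.72 to 29.8) in −Dox, above 88.0% of promoters, and 5.22 (1.36 to 12.8) in +Dox, above 37.9%. The ratio of 0.286 (0.0671 to 0.892) rests on about 14 reads against 4, and with the same summed signal it was 0.336 (0.0790 to 1.05). The low value in +Dox was below the median promoter, at 5.97.

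At the other 3 genes H3K27me3 was too low for a change to be read at this depth. CDKN1C, an imprinted gene that encodes p57, had 13.7 (6.98 to 25.0) and 13.0 (5.97 to 22.9), a ratio of 0.953 (0.339 to 2.31). CDKN2D, which encodes p19, had 9.13 (3.58 to 18.3) and 7.08 (2.74 to 16.3), a ratio of 0.776 (0.233 to 2.92). CDKN2C, which encodes p18, had 4.56 (1.38 to 13.0) and 8.58 (3.50 to 18.0), a ratio of 1.88 (0.436 to 7.99) on about 4 and 7 reads. Its window does not hold the canonical start, where H3K27me3 was not measured. Neighbours in the order of H3K27me3 levels below CDKN1A did not differ beyond counting error in either library, apart from CDKN1A itself, which exceeded CDKN1B 2.23-fold in −Dox (1.19 to 4.64).

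**Figure D1:**
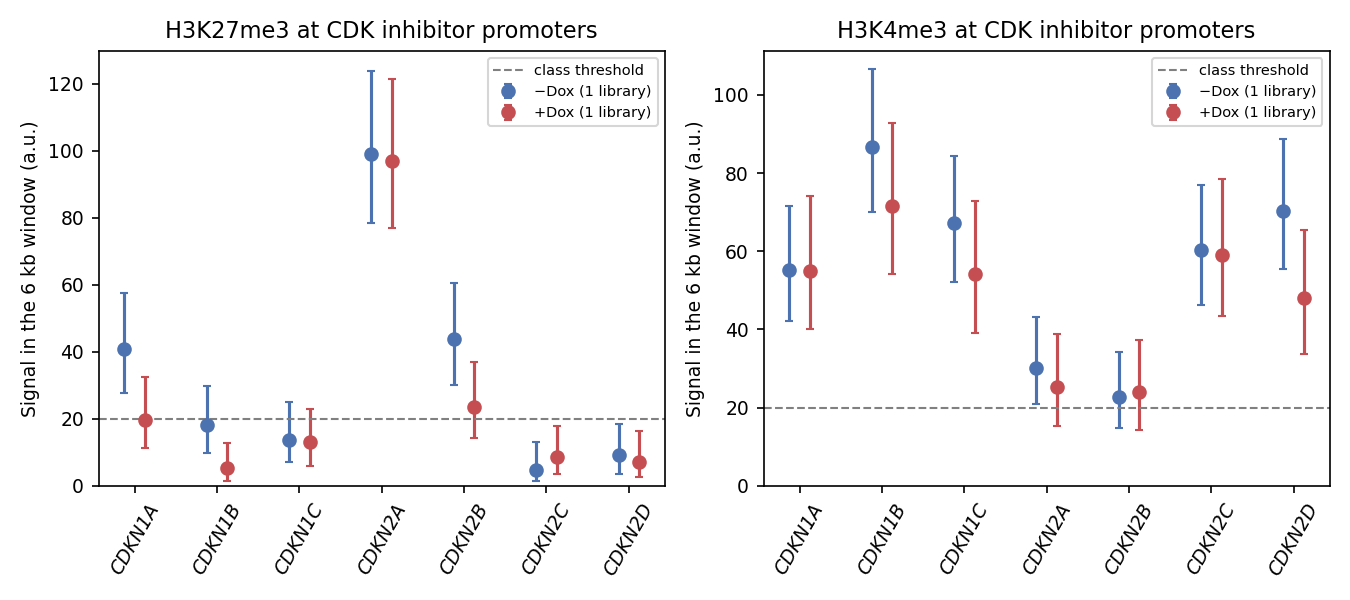
H3K27me3 (left) and H3K4me3 (right) signal, in arbitrary units, in the 6 kb window of each CDK inhibitor promoter, 1 library per point, with −Dox in blue and +Dox in red, bars giving 95% counting intervals and the dashed line the class threshold of 20. CDKN2A stands above the other genes for H3K27me3 in both conditions (98.9 and 96.9), and CDKN1A (40.7 and 19.8) and CDKN2B (43.7 and 23.5) come next in −Dox.

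The changes were then read against those of other promoters. As deposited, 2 of the 7 members (CDKN1A and CDKN1B) had an H3K27me3 ratio below 0.5 and none had a ratio above 2, while 21.5% of all promoters with a ratio lay below 0.5 and 14.7% above 2. Since low promoters scatter widely, the interval was also used, which is the stricter measure over all promoters but not over bivalent ones or the members. It lay below 1 for 3 members (CDKN1A, CDKN1B and CDKN2B) and for 7.05% of all promoters. This count was 0 of 7 with the same summed signal. Among bivalent promoters, 40.8% had a ratio below 0.5 and 48.5% an interval below 1, so the ratios of CDKN1A and CDKN2B were of a size common in their class. The median H3K27me3 ratio of the 7 was 0.776 (log2 −0.366), beside 0.901 over all promoters and 0.570 over bivalent ones. It is the ratio of CDKN2D, on about 7 and 6 reads. The log2 median became −0.131 with the same summed signal, beside 0.0837 over all promoters. Over members with a mean value of at least 10, which leaves out CDKN2C and CDKN2D, it was −0.897 as deposited. That is the log2 ratio of CDKN2B, whose interval reached 1 with the same summed signal. No median of other promoters was computed with this limit.

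Starting level matters for such a comparison, and level ranges were set after the values of the members had been seen. For the 691 bivalent promoters whose −Dox H3K27me3 lay from 30 to 60, the median ratio was 0.506, and 48.8% fell under 0.5. CDKN1A was higher than 46.9% of them and CDKN2B higher than 55.3%, so both sat in the middle of their range. For the 238 whose −Dox value lay from 80 to 120, the median ratio was 0.679, and 23.5% fell under 0.5. The CDKN2A ratio of 0.980 was reached or exceeded by 13.4% of these.

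**Figure D2:**
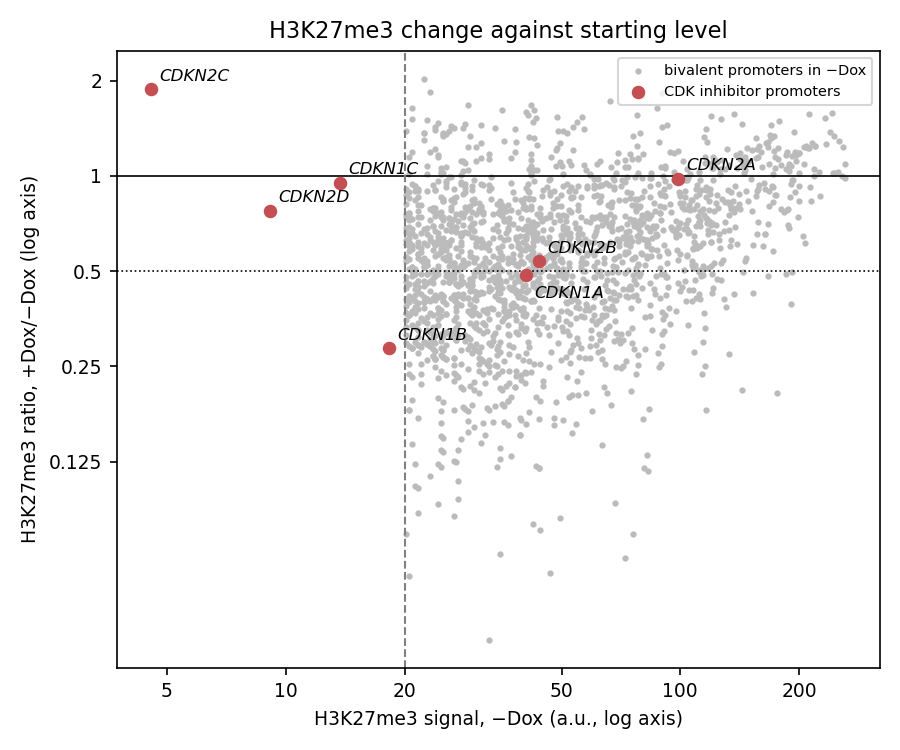
H3K27me3 ratio (+Dox/−Dox, log axis) against the −Dox H3K27me3 signal (arbitrary units, log axis) for the bivalent promoters (grey) and the 7 CDK inhibitor promoters (red), with lines at ratios of 1 and 0.5 and at the class threshold of 20. CDKN1A and CDKN2B lie in the middle of the cloud at their level, CDKN2A near its upper part, and CDKN1B just left of the threshold.

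Whether members changed unequally was examined by dividing one ratio by another, which cancels any scaling of the libraries. The H3K27me3 ratio of +Dox to −Dox at CDKN2A was 1.83 times that at CDKN2B (0.901 to 3.62) and 2.02 times that at CDKN1A (0.971 to 4.22). CDKN2A thus had the smallest fall of these 3, but both intervals included 1. Of the 21 pairs of members, only CDKN2A against CDKN1B had an H3K27me3 interval that excluded 1, at 3.43 (1.03 to 15.2), and this was not corrected for the number of pairs. These data thus do not separate the response of CDKN2A from that of CDKN1A or CDKN2B.

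**Figure D3:**
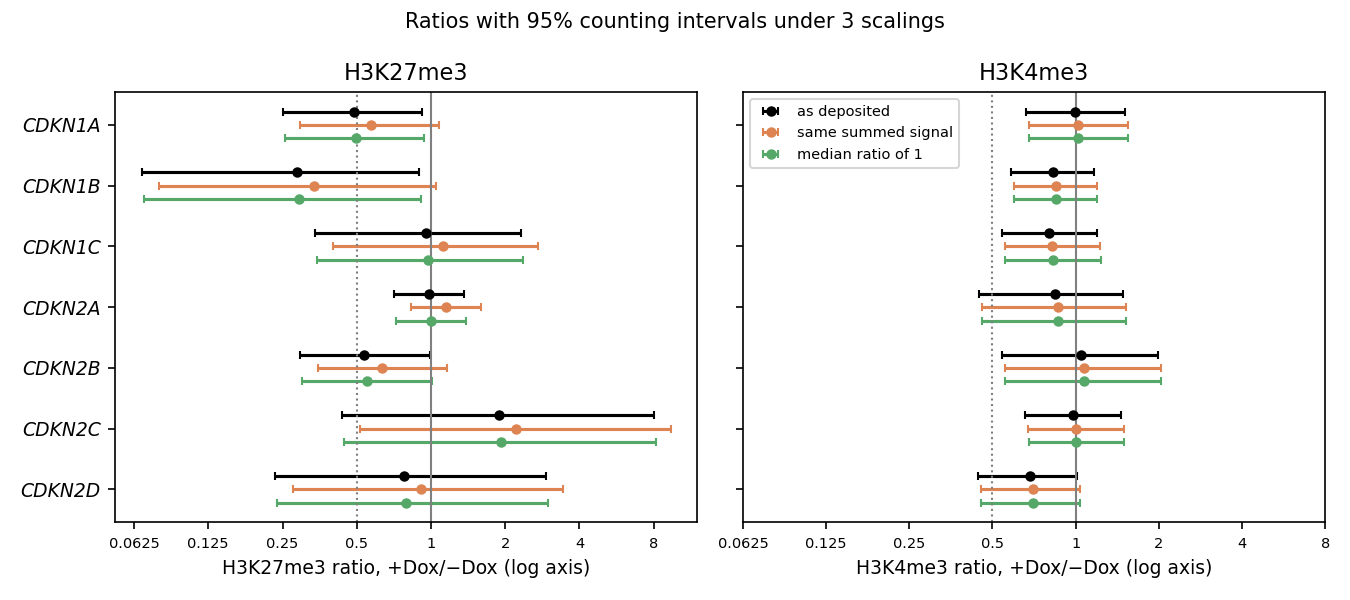
Ratios of +Dox to −Dox (log axis) for H3K27me3 (left) and H3K4me3 (right) at each CDK inhibitor promoter, with 95% counting intervals, as deposited (black), with both libraries of a mark scaled to the same summed signal (orange) and with a median ratio of 1 over reference promoters (green). The black H3K27me3 intervals of CDKN1A, CDKN1B and CDKN2B end below 1 (at 0.920, 0.892 and 0.988), and their orange ones reach beyond 1.

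CDKN2A and CDKN2B lie side by side, so the listed promoters of the region were compared. Only promoters with a position, 90.1% of all, could be placed, so a closer neighbour without one may be missing. The CDKN2B start lies 14.0 kb from the listed CDKN2A start, and the windows do not overlap. C9orf53, listed 28.4 kb from CDKN2A on its other side, had the highest H3K27me3 of the region with 180 in −Dox and 153 in +Dox, a ratio of 0.852 (0.666 to 1.10), and H3K4me3 of 14.0 and 11.2, below the threshold. H3K27me3 thus stepped down from C9orf53 through CDKN2A to CDKN2B in both conditions. The outer neighbours MTAP, a methionine salvage enzyme 193 kb away, and DMRTA1, a transcription factor gene 452 kb away, had H3K27me3 of only 8.75 and 9.13 in −Dox with H3K4me3 of 71.0 and 48.4. No listed window with a position covered the p16 start, so nothing is said here of H3K27me3 at p16. That start was 4.93 kb from the edge of the C9orf53 window and 17.4 kb from that of CDKN2A. Around CDKN1A, SRSF3 (84.4 kb away) and STK38 (131 kb) on one side had H3K27me3 of 7.99 and 6.09 in −Dox. On the other side CPNE5 (161 kb), which encodes a copine, was bivalent with 51.7 and 35.4, a ratio of 0.685 (0.399 to 1.11), and C6orf89 (193 kb) had 3.42 in −Dox.

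**Figure D4:**
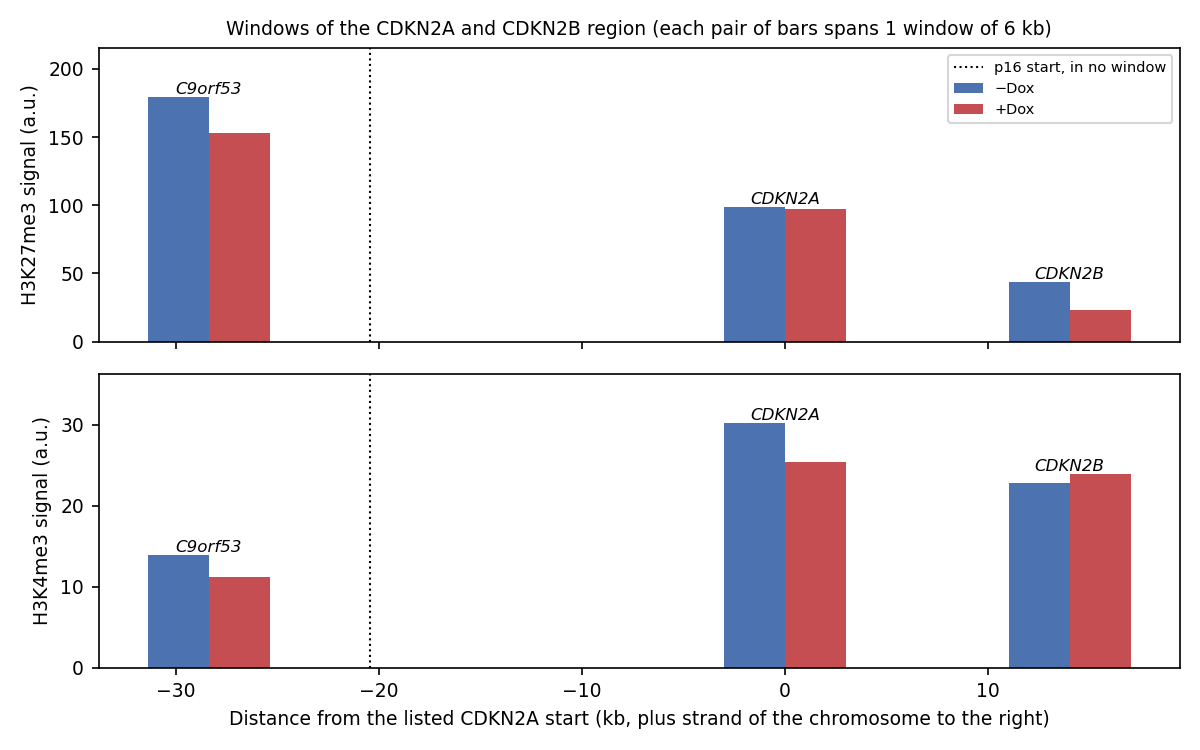
H3K27me3 (top) and H3K4me3 (bottom) signal in arbitrary units for the windows of C9orf53, CDKN2A and CDKN2B, placed by distance in kb from the listed CDKN2A start, where each pair of bars (−Dox blue, +Dox red) spans 1 window and the dotted line is the p16 start. H3K27me3 is highest at C9orf53 (180 and 153) and lowest at CDKN2B (43.7 and 23.5), and the p16 start falls in none of the 3 windows.

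H3K4me3 was above 20 at all 7 promoters in both conditions. CDKN1B had the highest level, 86.6 (69.9 to 107) in −Dox and 71.6 (54.2 to 92.8) in +Dox. The bivalent INK4 genes were lowest, with 30.2 (20.9 to 43.1) and 25.4 (15.3 to 38.8) at CDKN2A and 22.8 (14.7 to 34.1) and 23.9 (14.4 to 37.3) at CDKN2B. CDKN1A, although bivalent, had 55.3 (42.0 to 71.6) and 54.8 (40.2 to 74.2), 1.83-fold more than CDKN2A in −Dox (1.16 to 2.88). Between these lay CDKN1C with 67.3 and 54.1, CDKN2C with 60.4 and 58.9, and CDKN2D with 70.4 and 48.1. In −Dox the step from CDKN1A to CDKN2A was the only one between neighbours in this order that exceeded counting error, and in +Dox the only one was that from CDKN2D to CDKN2A, 1.90-fold (1.08 to 3.45).

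The H3K4me3 ratio interval included 1 at all 7 genes. The ratios ran from 0.683 (0.445 to 1.01) at CDKN2D to 1.05 (0.540 to 1.98) at CDKN2B, and 6 of the 7 were below 1. They were 0.991 (0.659 to 1.50) at CDKN1A, 0.826 (0.581 to 1.16) at CDKN1B, 0.804 (0.540 to 1.20) at CDKN1C, 0.839 (0.446 to 1.48) at CDKN2A and 0.975 (0.658 to 1.46) at CDKN2C. None lay below 0.5 or above 2, as did 5.33% and 6.09% of all promoters, and the interval excluded 1 at 4.84% of all promoters. The median over the 7 was 0.839, beside 0.981 over all promoters and 0.884 over bivalent ones. At CDKN1A and CDKN2B, H3K27me3 ratios of 0.486 and 0.537 as deposited thus stood beside H3K4me3 ratios of 0.991 and 1.05.

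The windows differed widely in CpG number, a feature the choice by symbol did not use. CDKN1C held 445 CpG dinucleotides in 6 kb, more than 99.5% of windows, followed by CDKN2D with 302, CDKN2A with 250, CDKN1A with 247, CDKN1B with 189, CDKN2C with 167 and CDKN2B with 142. The median was 156 over 18244 windows with a position and 219 over bivalent ones, so CDKN2B lay below the first and CDKN1B, CDKN2C and CDKN2B below the second. CpG number did not follow the H3K27me3 level within the family, as the richest window, CDKN1C, was H3K4me3-only and the poorest, CDKN2B, was bivalent.

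The kinases and cyclins that these inhibitors act on, and other genes of the same control circuit, were examined in 5 lists of 47 genes in all, each of which had a row and a ratio. For H3K27me3, 10 of the 47 (21.3%) were below 0.5, beside 21.5% of all promoters, and 4 (8.51%) were above 2, beside 14.7%. The interval lay below 1 for 4 (8.51%), beside 7.05% of all promoters, and above 1 for none. With the same summed signal it lay below 1 for 3, as E2F2 no longer passed, and above 1 for 1. The latter was RBL2, a pocket protein gene named here after its values were seen, with a ratio of 5.11 (1.07 to 49.4). Its deposited H3K27me3 was only 2.66 in −Dox and 11.6 in +Dox, on about 2 and 9 reads. The median H3K27me3 ratio of the 47 was 0.761 as deposited. For H3K4me3 the interval lay below 1 for 3 genes and above 1 for 1, 8.51% in all beside 4.84% of all promoters, with a median ratio of 1.05. Those 4 genes are named below, and E2F3, E2F8 and RPRM among them were chosen after their values were seen.

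Most targets of the inhibitors carried H3K4me3 and little H3K27me3. All 5 genes of CDK4, CDK6 and the D-type cyclins were above 20 for H3K4me3, and 2 were bivalent, with a median H3K27me3 ratio of 0.518. CCND3, a D-type cyclin gene, went from 67.7 to 35.0, a ratio of 0.518 (0.315 to 0.834), but its listed start lies 108549 bp from the canonical one. CDK4 had 52.9 and 57.4, a ratio of 1.09 (0.691 to 1.67), at a start 3703 bp from the canonical one. Of the 8 genes for CDK1, CDK2 and cyclins A, B and E only CCNA1, the germline cyclin A, was bivalent, with 66.2 and 50.3, a ratio of 0.761 (0.487 to 1.16), and the median ratio of the 8 was 0.701.

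Downstream of the kinases, the 11 pocket protein and E2F genes were all above 20 for H3K4me3, and E2F2 alone was bivalent. Its H3K27me3 went from 23.2 to 8.58, a ratio of 0.370 (0.135 to 0.957), and with the same summed signal the ratio was 0.435 with an interval that included 1 (0.158 to 1.13). For H3K4me3, E2F8, a repressive E2F, went from 92.0 to 52.2, a ratio of 0.567 (0.391 to 0.836), and E2F3, an activating one, from 105 to 142, a ratio of 1.35 (1.03 to 1.77). The median H3K27me3 ratio of these 11 genes was 0.545, on a median −Dox value of 7.99.

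Among 14 other growth-arrest genes, 4 were bivalent and 2 of these had an H3K27me3 interval below 1, beside 48.5% of all bivalent promoters. BTG2, an antiproliferative p53 target, went from 108 to 63.0, a ratio of 0.585 (0.407 to 0.842). PLAGL1, an imprinted zinc finger gene, went from 108 to 63.8, a ratio of 0.592 (0.407 to 0.842), at a start 56340 bp from the canonical one. TP73, a p53 relative, had 41.5 and 55.2, a ratio of 1.33 (0.814 to 2.12), and RASSF1, a tumour suppressor gene, had 34.2 and 28.0, a ratio of 0.817 (0.434 to 1.46). H3K4me3 at TP73 went from 135 to 85.4, a ratio of 0.632 (0.468 to 0.854), and at RPRM, the gene of the cell cycle arrest protein Reprimo, from 107 to 72.3, a ratio of 0.675 (0.488 to 0.944). The median H3K27me3 ratio of the 14 genes was 0.795. None of the 9 genes that act on the inhibitor proteins exceeded 20 for H3K27me3 in −Dox, and their median ratio of 1.37 rests on a median value of 3.80.

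**Figure D5:**
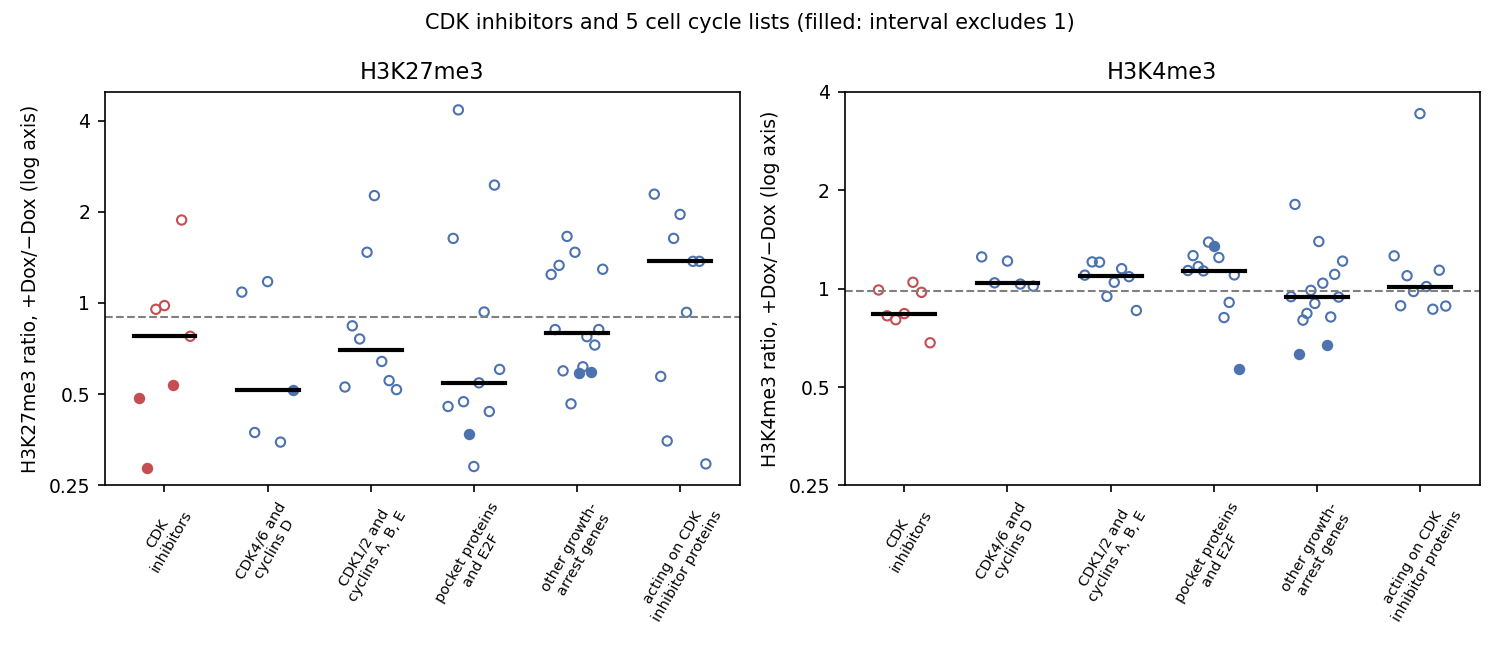
Ratio of +Dox to −Dox (log axis) for H3K27me3 (left) and H3K4me3 (right) at the 7 CDK inhibitor genes (red) and the 47 genes of the 5 cell cycle lists (blue), 1 point per gene, filled where the 95% counting interval excludes 1, with black lines for the median of a list and a dashed line for that of all promoters (0.901 and 0.981). H3K27me3 ratios spread widely in each list, and 3 CDK inhibitor genes and 4 other genes have an interval below 1.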

How the data were processed

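ChIP-seq libraries of H3K27me3 and H3K4me3 from JMJD3c-hESCs with and without Dox, 1 per group, were analysed. The authors used a MiSeq for 150-base single-end sequencing and Bowtie2 for mapping to hg19 (CASAVA 1.4 is also named in the submitters' processing notes) and removed mitochondrial reads. The deposited signal is ngs.plot coverage scaled to library reads by the authors. The methods also mention a normalization by read density beyond gene ends. Its use for these values is not stated, nor are the versions of Bowtie2, ngs.plot and the annotation. No input library was used here.

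Every value was a whole multiple of a step, taken as 1 read at 1 data point. The step was 0.380 and 0.373 for H3K27me3 and 0.285 and 0.373 for H3K4me3 in −Dox and +Dox, so the +Dox libraries of both marks shared it. It gave libraries of about 2629350 and 2682090 reads for H3K27me3 and 3509240 and 2682090 for H3K4me3 in −Dox and +Dox. Whether the total shared by both +Dox libraries is the true read number of each could not be checked, and the ratios rest on it. A read covered 3.34 to 3.37 points, from the peaks of the low values, which gave approximate reads per promoter (197460, 171153, 962944 and 713646 in all windows). Ratios are plain +Dox/−Dox values, and their intervals come from exact Clopper-Pearson bounds on the share of reads in +Dox, those of levels from exact Poisson intervals, and those of ratios of ratios from conditional odds ratios (SciPy 1.17.1). Reads carry no molecular identifiers and are not independent molecules. The calculation was tested on simulated data.

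Starts were placed by transcript identifier in GENCODE 44 mapped to GRCh37 (90.1% matched), and the authors' annotation may have placed some differently. The named genes are the 7 members and genes of the fixed lists above 20 for H3K27me3 in −Dox or past 2-fold with an interval that excludes 1 (up to 5 per list). Also named are 2 listed promoters with a position on each side of a marked member and 3 promoters with the nearest pattern. Members and lists were chosen with earlier results of these data known. RefSeq promoters were found for 6 of the 7 members, not for CDKN1C.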

Additional observations from a re-analysis of the deposited data

How the results depend on the processing

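With the H3K27me3 libraries scaled to the same summed signal, which multiplies every ratio by 1.18 and assumes an unchanged total, the ratios of CDKN1A, CDKN1B and CDKN2B became 0.571, 0.336 and 0.632 with intervals that included 1. The number of members with an interval below 1 then went from 3 to 0 and the number below 0.5 from 2 to 1. Over all promoters 15.7% then lay below 0.5 and 19.8% above 2. The paper reports from immunoblots that H3K27me3 fell in these cells after Dox, and from ChIP-seq that it fell at promoters. The assumption of an unchanged total departs from that report. The intervals under this scaling thus show how far the calls depend on scaling, not that the total was kept. With a median ratio of 1 over promoters at 10 or less the CDKN2B ratio was 0.548, its interval included 1, and 2 members kept an interval below 1. A pseudocount of 5 left 1 member below 0.5. At a class threshold of 10, 5 members were bivalent, as CDKN1B and CDKN1C joined, and at 30 only CDKN1A and CDKN2A, 2 members, were. No recomputed value reversed a called direction, but neither these scalings nor a pseudocount could take the called ratios of CDKN1A, CDKN1B and CDKN2B past 1. Of 85 recomputed values, 77 stayed within the interval of the reported value or within 1.5 times the count. Many of these intervals are wide, and the one used for a median was that of its middle gene alone, so this says little about stability. The scaling checks on the cell cycle lists and on the number of intervals below 1 were chosen after seeing the data. No paired analysis was possible because a group holds a single library, which also means that none could be left out. Depth limits CDKN1C, CDKN2C and CDKN2D, which had 11 or fewer reads of H3K27me3 in each library.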

Other observations

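The promoters with the pattern most like a marked member, by distance over the log2(value + 1) of the 4 libraries, were LPPR5, TMEM171 and ZNF385B for CDKN1A (0.150, 0.188 and 0.194 log2 units), KCNA1, TAC1 and KLF14 for CDKN2A (0.190, 0.217 and 0.253) and SEC31B, OR4D1 and MGARP for CDKN2B (0.236, 0.261 and 0.283). KCNA1, a potassium channel gene, and TAC1, the substance P precursor gene, resembled CDKN2A in carrying H3K27me3 near 100 before and after Dox (104 and 101, and 96.2 and 93.2) with H3K4me3 of 27.6 and 23.5, and 34.8 and 26.5. OR4D1 belongs to the olfactory receptors, a multigene family, so its value is uncertain where copies share reads.

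Another 3 genes carry a CDKN symbol without being inhibitors of the 2 families. CDKN3, a phosphatase gene, had H3K27me3 of 3.80 and 6.71, and CDKN2AIPNL had 4.18 and 5.59. CDKN2AIP, which encodes a partner of ARF, had 1.14 in −Dox and 13.0 in +Dox, a ratio of 11.4 (1.39 to 425) on about 1 and 10 reads. All 3 were H3K4me3-only, with H3K4me3 of 52.1 and 49.2, 41.9 and 50.3, and 115 and 90.2.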
